A study of Mus musculus with 12 samples.

Results

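COPI is the protein coat that buds vesicles from the Golgi and from the ER-Golgi intermediate compartment and returns escaped ER proteins, cargo receptors and recycling membrane to the ER. The 9 genes of its coatomer (Copa, Copb1, Copb2, Copg1, Copg2, Cope, Copz1, Copz2 and Arcn1) and Gbf1, which encodes the exchange factor that loads ARF GTPases with GTP so that coatomer can bind the membrane, are described here by name. These 10 genes were matched by symbol to the Ensembl identifiers of a count table with 46603 identifiers. All 10 were among the 13167 genes with enough counts to be tested. Polyadenylated RNA was sequenced from mouse spleen CD8 T cells of the OT-I/Cas9 strain. Their transgenic T cell receptor recognises an ovalbumin peptide, and Cas9 and EGFP are expressed constitutively. There were 12 libraries in 6 groups of 2. The cells had all been activated on antibodies to CD3 and CD28 beforehand, transduced with a retroviral guide, selected with puromycin and kept in IL-2, IL-7 and IL-15. Cells called resting here were therefore not naive but had not been restimulated.

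The 6 groups combined a guide, a treatment and a state. Control-guide cells (Ctrl) received water as vehicle (Veh) or 100 µM AGN192403 (AGN), an imidazoline receptor ligand used in the study as a pharmacological means of reducing TMED proteins. Tmed10 knockout cells (Tmed10 KO) received vehicle alone, so AGN192403 was tested on control-guide cells and the KO and AGN192403 comparisons use the same control libraries. Each combination was sampled at rest and after 24 h on plate-bound antibody to CD3 at 2.5 µg/mL. Each knockout group was a population of edited cells rather than a clone. The labels do not say whether replicates are separate cultures or mice, so p-values may measure technical spread alone.

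Coatomer is recruited as a whole, but its subunits form a pair of subcomplexes. The B subcomplex of α-COP (Copa), β′-COP (Copb2) and ε-COP (Cope) forms the outer layer and reads dilysine retrieval signals through the WD40 domains of α-COP and β′-COP. The F subcomplex of β-COP (Copb1), γ-COP (Copg1 or Copg2), δ-COP (Arcn1) and ζ-COP (Copz1 or Copz2) is related to the clathrin adaptors and contacts ARF. The p24 proteins, among them TMED10, are cargo receptors that cycle between ER and Golgi and bind coatomer through their cytosolic tails, which is what links the targeted gene to this coat.

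The targeted gene was lower in every library that carried its guide. Tmed10 stood at 116 and 117 CPM (read counts relative to library size, scaled by TMM) in resting Ctrl cells, and at 61.5 and 65.1 CPM in resting KO cells. It stood at 128 and 125 CPM in activated Ctrl cells, and at 55.9 and 58.3 CPM in activated KO cells. The log2 fold change was -0.89 ± 0.0525 at rest (standard error, SE; edgeR quasi-likelihood test, Benjamini-Hochberg adjusted p = 2.08e-11) and -1.15 ± 0.0525 after activation (edgeR adjusted p = 6.85e-14). With AGN192403 Tmed10 mRNA was higher, at 133 and 138 CPM at rest and 135 and 144 CPM after activation (log2 fold changes 0.22 ± 0.0476 and 0.14 ± 0.0465, edgeR adjusted p = 0.00123 and 0.018). Libraries held 9089350 to 16481840 counts, and replicates correlated at 0.992 to 0.995 in log2 CPM. Relative to sampling noise, replicate counts differed most in activated AGN192403 cells, with a chi-square per degree of freedom of 4.11 against 1.14 to 2.28 in the other groups. The CD8 T cell marker genes summed to 2227 to 3565 CPM in all libraries, with Cd8a at 632 to 780 CPM (ranges over 12 libraries). B cell, myeloid and NK cell markers summed to at most 8.08, 18.8 and 0.799 CPM, erythroid markers to less than those of NK cells, and Ms4a1 and Hbb-bs were at 0 in every library. The stromal list reached 97.6 CPM through Pecam1, which T cells also express.

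Coat genes were well expressed and differed in level. Per kilobase of their longest principal transcript, resting Ctrl cells held most Cope, at 114 ± 0.42 CPM per kb (SD, n = 2), followed by Copa at 95.5 ± 0.136, Copz1 at 85.8 ± 1.35 and Copb2 at 71.6 ± 1.29 CPM per kb. Copb1, Arcn1 and Copg1 followed at 60.8 ± 1.11, 59.7 ± 1.56 and 47.1 ± 0.598 CPM per kb. Copb1 and Arcn1 differed by less than the spread between their replicates. Gbf1 stood at 19.5 ± 0.174 and Copg2 at 15.99 ± 0.674 CPM per kb, and Copz2 was close to the limit of detection, at 0.675 ± 0.195 CPM per kb. The 2 resting Ctrl libraries held 5 and 10 Copz2 reads.

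**Figure D1:**
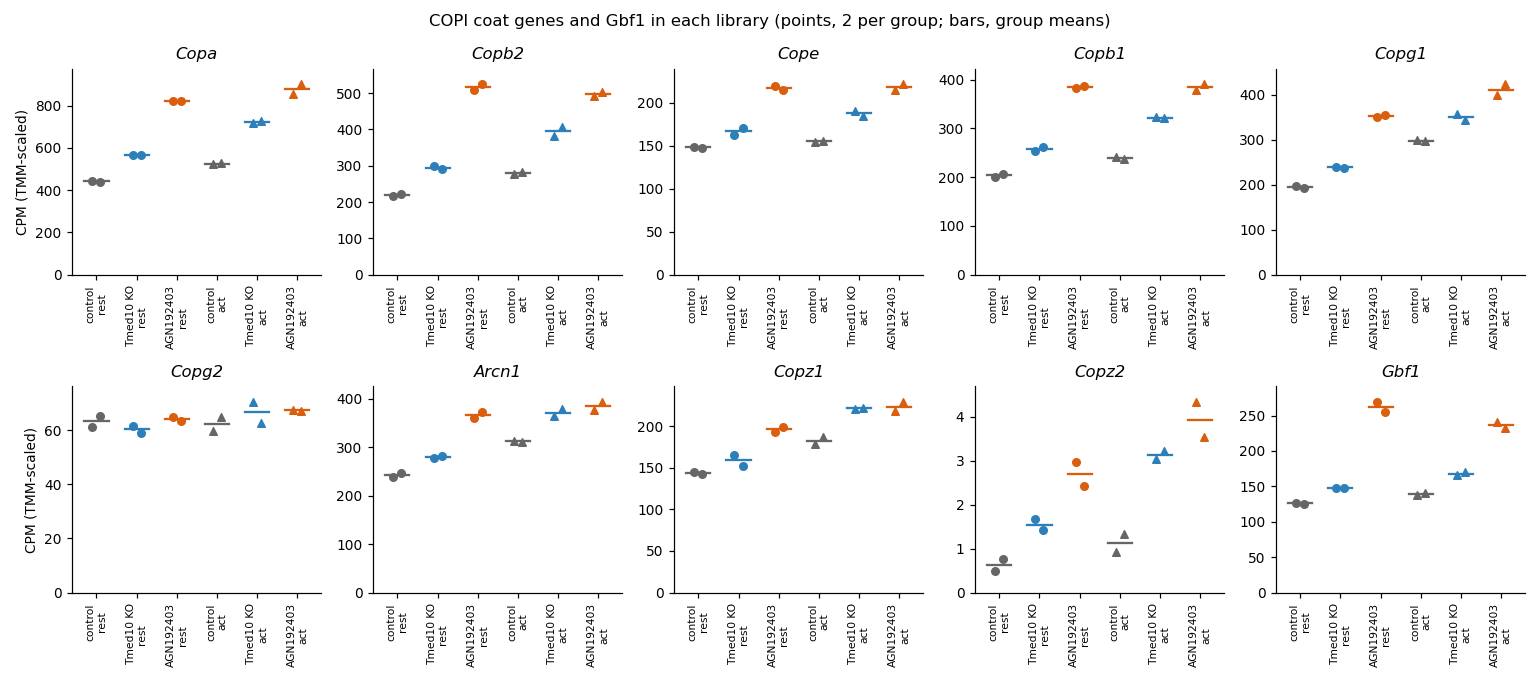
CPM (TMM-scaled, vertical axis from 0) of each coat gene and of Gbf1 in the 12 libraries. Circles are resting and triangles activated libraries, 2 per group, in grey for control vehicle, blue for Tmed10 KO and orange for AGN192403 cells; horizontal bars are group means. Apart from Copg2, which stayed between 59.2 and 70.6 CPM, every gene had its lowest group mean in resting control cells.

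On GRCm38, the B subcomplex genes lie on chromosome 1 (Copa, 172082529 to 172122330), chromosome 9 (Copb2, 98563721 to 98588382) and chromosome 8 (Cope, 70302518 to 70312993). Of the F subcomplex genes, Copb1 lies on chromosome 7 (114215559 to 114254711) and Arcn1 on chromosome 9 (44741564 to 44767845). The γ-COP paralogues share chromosome 6 (Copg1, 87887814 to 87913595, and Copg2, 30747554 to 30896794), and the ζ-COP paralogues lie on chromosome 15 (Copz1, 103272714 to 103299868) and chromosome 11 (Copz2, 96849870 to 96861203). Gbf1 spans 46152509 to 46286510 on chromosome 19. Exons of Copa overlap those of Ncstn on the opposite strand by 195 bases, and exons of Copg2 overlap those of Mest by 912 bases. Ncstn had 18072 reads in all libraries against 96245 for Copa, and Mest had 72 against 9369 for Copg2. The antisense RNAs that overlap exons of Copa, Copg1 and Gbf1 held 4, 11 and 5 reads. Whether strand was used in the counting is not stated.

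Promoter sequences, 250 bases before to 50 after the annotated start, were given by RefSeq (GRCm38.p6) for 9 of the 10 genes, Arcn1 being the exception. They were searched on both strands for elements named after the unfolded protein response and Golgi stress. The unfolded protein response element (UPRE, letters TGACGTGG) was found in 3 of the 9, Copb1, Copb2 and Gbf1, and in 0.676% of the 32851 RefSeq promoters of that length. In each of the 3 it lay on the minus strand of the gene, so that it reads CCACGTCA, and began 28 bases before the start in Copb1, 7 before it in Copb2 and 12 before it in Gbf1. The Golgi stress element (ACGTGGC), which shares 6 of its letters with the UPRE, was found in 2 of 9, beginning 3 bases after the start of Copg1 and 39 after that of Copz2, and in 2.58% of all promoters. The promoters that hold a UPRE and those of both γ-COP paralogues are shown. Capitals mark the UPRE in the upper 3 and the Golgi stress element in Copg1. Copg2 holds neither.
Copb1, chr7:114254631-114254930, minus strand: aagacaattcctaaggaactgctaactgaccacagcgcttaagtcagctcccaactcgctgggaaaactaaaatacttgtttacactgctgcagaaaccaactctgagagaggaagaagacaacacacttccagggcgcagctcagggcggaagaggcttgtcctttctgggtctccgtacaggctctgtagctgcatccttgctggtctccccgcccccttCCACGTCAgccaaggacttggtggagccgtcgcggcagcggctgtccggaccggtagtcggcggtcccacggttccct
Copb2, chr9:98563481-98563780, plus strand: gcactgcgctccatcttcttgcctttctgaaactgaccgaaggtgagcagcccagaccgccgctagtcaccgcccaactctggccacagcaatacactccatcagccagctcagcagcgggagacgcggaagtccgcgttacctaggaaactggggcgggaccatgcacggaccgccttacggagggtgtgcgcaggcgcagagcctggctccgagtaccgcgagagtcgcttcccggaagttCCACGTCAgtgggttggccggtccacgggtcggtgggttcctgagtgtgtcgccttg
Gbf1, chr19:46152308-46152607, plus strand: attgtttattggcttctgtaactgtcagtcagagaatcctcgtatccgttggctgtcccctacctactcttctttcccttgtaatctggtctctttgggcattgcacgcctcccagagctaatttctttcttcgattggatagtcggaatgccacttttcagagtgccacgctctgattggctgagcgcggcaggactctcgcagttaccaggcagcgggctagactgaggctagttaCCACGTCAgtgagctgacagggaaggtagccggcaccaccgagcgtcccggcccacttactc
Copg1, chr6:87887690-87887989, plus strand: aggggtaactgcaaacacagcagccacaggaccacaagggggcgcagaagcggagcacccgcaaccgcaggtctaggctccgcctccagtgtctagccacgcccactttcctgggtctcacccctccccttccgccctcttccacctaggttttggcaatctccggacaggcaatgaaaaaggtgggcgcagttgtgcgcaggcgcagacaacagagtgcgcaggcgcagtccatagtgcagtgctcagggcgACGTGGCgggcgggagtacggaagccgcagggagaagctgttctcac
Copg2, chr6:30896745-30897044, minus strand: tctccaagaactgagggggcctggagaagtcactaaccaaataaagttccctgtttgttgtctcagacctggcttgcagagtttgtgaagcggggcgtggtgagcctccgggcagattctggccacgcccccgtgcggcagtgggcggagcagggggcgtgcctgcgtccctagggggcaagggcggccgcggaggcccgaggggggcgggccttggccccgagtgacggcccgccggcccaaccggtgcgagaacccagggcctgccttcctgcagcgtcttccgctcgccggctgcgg

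The other motifs searched gave these counts. The cyclic AMP response element (TGACGTCA) was found in 1 of 9, Cope, against 1.79% of all promoters. The ER stress element (CCAAT, 9 bases of any kind, CCACG) and the ATF4 element (TGATGNAAT) were found in none, against 0.119% and 0.965% of all promoters. CCAAT alone was found in 3 of 9, against 37.4%. CCACG alone, which also lies within the UPRE and the Golgi stress element, was found in 7 of 9, against 32.8%. A match is a description of the letters, and no binding was measured.

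AGN192403 in resting cells gave the largest rise of the coat. The summed level of the 9 coatomer genes was 1649 and 1665 CPM in the resting vehicle libraries and 2906 and 2943 CPM in those with AGN192403, a ratio of means of 1.76. Of the 10 genes 9 rose, none fell, and Copg2 did not pass the test. Among all 13167 genes, 11.6% were called higher and 13.7% lower, and the median log2 fold change was 0.88 for the 10 genes against -0.01 for all genes. With library totals in place of TMM scaling, 1991 genes were called higher and 1426 lower, against 1533 and 1808. In bulk RNA, a change in level per cell and a change in the share of cells that hold the transcript cannot be told apart. Marker sums also moved between these groups. From vehicle to AGN192403 libraries the CD8 T cell list went from 3476 and 3518 CPM to 3243 and 3284 CPM. The myeloid list went from 16.4 and 18.8 to 13.8 and 13.8 CPM, and the B cell list from 6.09 and 7.11 to 4.79 and 5.18 CPM. The stromal list went from 96.8 and 97.6 to 80.5 and 84.7 CPM, and the CD4 T cell list overlapped. The part of these shifts in the coat result was not tested.

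Within the B subcomplex, Copb2 (β′-COP) went from 216 and 221 CPM in vehicle libraries to 509 and 526 CPM with AGN192403, a log2 fold change of 1.24 ± 0.0425 (SE; edgeR adjusted p = 1.82e-16), which is 2.37-fold. Copa (α-COP) went from 442 and 441 CPM to 823 and 824 CPM, or 0.90 ± 0.0376 in log2 (edgeR adjusted p = 3.29e-15). Both had replicates that nearly coincided and groups far apart. Cope (ε-COP, which stabilises α-COP) went from 148 and 148 CPM to 219 and 214 CPM and rose less, by 0.55 ± 0.0432 in log2 (edgeR adjusted p = 4.75e-10). In the F subcomplex, Copb1 (β-COP) went from 201 and 206 CPM to 383 and 386 CPM, or 0.92 ± 0.04 in log2 (edgeR adjusted p = 6.11e-15). Copg1 (γ1-COP) went from 197 and 193 CPM to 351 and 354 CPM, or 0.85 ± 0.0421 in log2 (edgeR adjusted p = 6.62e-14). The δ and ζ subunits moved in the same direction by smaller amounts. Arcn1 went from 239 and 248 CPM to 359.6 and 374 CPM (log2 fold change 0.59 ± 0.0415), and Copz1 from 145 and 142 CPM to 193 and 199 CPM (log2 fold change 0.45 ± 0.0479), both called with edgeR.

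Gbf1, the exchange factor, rose 2.08-fold. It went from 127 and 125 CPM to 269.6 and 255 CPM, a log2 fold change of 1.06 ± 0.044 (SE; edgeR adjusted p = 3.19e-15) and the second largest among the well expressed genes of the set after Copb2. The minor paralogues went separate ways. Copz2 (ζ2-COP) went from 5 and 10 reads to 28 and 34 reads, or from 0.500 and 0.757 CPM to 2.96 and 2.43 CPM, a log2 fold change of 2.02 with a 95% interval from 1.28 to 2.76 (edgeR adjusted p = 0.000128). It passed the count filter through other groups, since both resting Ctrl libraries lay under the filter level of 0.820 CPM, so that its fold is poorly bounded. Among the 9 genes that rose, Copz2 is therefore not support beside the share of all genes. Copg2 (γ2-COP) stood at 61.4 and 65.2 CPM without and 65.1 and 63.4 CPM with the compound, and the groups overlapped. Its log2 fold change of 0.01 had a 95% interval from -0.12 to 0.14 (edgeR adjusted p = 0.911), below the interval of Copg1, 0.77 to 0.94.

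**Figure D2:**
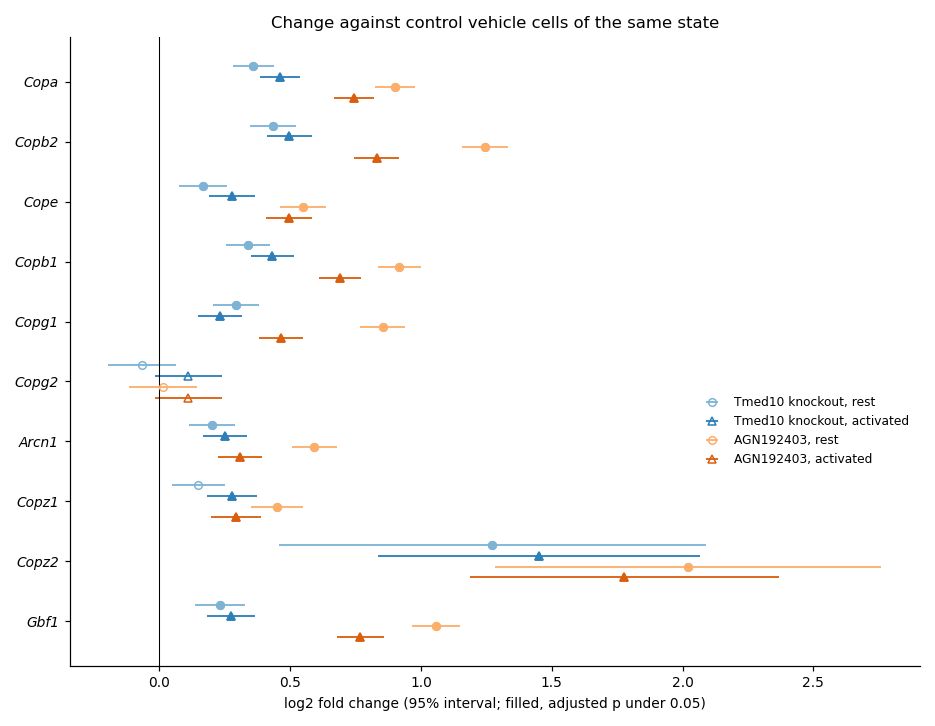
Log2 fold change (horizontal axis) of each gene against control vehicle cells of the same state, for the Tmed10 KO (blue) and AGN192403 (orange), at rest (circles) and after activation (triangles). Lines are 95% intervals and filled symbols passed the edgeR test at an adjusted p of 0.05. Copg2 is open in all 4 comparisons, and for the other genes AGN192403 at rest lies farthest to the right, from 0.45 for Copz1 to 2.02 for Copz2.

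In activated cells, AGN192403 again raised 9 of the 10 genes, with Copg2 the exception. The coat sum was 2044 and 2065 CPM in activated vehicle libraries and 3005 and 3137 CPM with AGN192403, a ratio of means of 1.495. None of the 10 fell, among all genes 16.4% were called higher and 18.3% lower, and the median log2 fold change was 0.59 for the 10 genes against -0.01 for all. With library totals in place of TMM scaling the calls over all genes were 2684 higher and 1929 lower, against 2158 and 2412. Copb2 went from 276 and 283 CPM to 492 and 502 CPM (log2 fold change 0.83 ± 0.0415, edgeR adjusted p = 4.45e-14). Gbf1 went from 138 and 140.3 CPM to 241 and 233 CPM (0.77 ± 0.0434 in log2, edgeR adjusted p = 4e-13), and Copa from 522 and 529 CPM to 855 and 904 CPM (0.74 ± 0.0372 in log2, edgeR adjusted p = 4.45e-14). In none of these did the groups overlap. Copb1, Cope and Copg1 rose by 0.69, 0.50 and 0.47 in log2, and Arcn1 and Copz1 by 0.31 and 0.29. Copz2 went from 11 and 16 reads to 46 and 48 reads, a log2 fold change of 1.78 (edgeR adjusted p = 2.13e-05). Copg2 again did not pass, at 59.7 and 65.1 CPM against 67.6 and 67.2 CPM (log2 fold change 0.11, 95% interval -0.02 to 0.24, edgeR adjusted p = 0.179). Of the CD4 T cell markers, 1 of 2 had a mean of at least 1 CPM. Their sum was 33.3 to 36.6 CPM in activated Ctrl libraries, 63.2 to 68.0 CPM with AGN192403 and 45.1 to 50.8 CPM in KO libraries, nearly all from Zbtb7b, while Cd4 itself stayed at 0.378 to 1.29 CPM in all libraries. The part of this in the coat result was not tested.

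Tmed10 knockout gave a smaller rise in the coat. In activated cells the coat sum was 2630.1 and 2649 CPM in KO libraries, 1.29 times that of the Ctrl libraries. Of the 10 genes 9 rose, none fell and Copg2 did not pass, while 10.8% of all genes were called higher and 8.78% lower. The median log2 fold change was 0.28 for the 10 genes and 0.02 for all. Copb2 reached 382 and 408 CPM (log2 fold change 0.50 ± 0.0418, edgeR adjusted p = 3.86e-09) and Copa 720.3 and 726 CPM (0.46 ± 0.0373 in log2, edgeR adjusted p = 1.91e-09). Copb1 reached 322 and 321 CPM (0.43 ± 0.0395 in log2, edgeR adjusted p = 1.59e-08). Leaving out Copz2, these 3 changed most, and no KO library of theirs overlapped Ctrl. Cope, Copz1, Gbf1, Arcn1 and Copg1 rose by 0.28, 0.28, 0.27, 0.25 and 0.23 in log2, with edgeR adjusted p from 3.37e-05 to 0.000143. Copz2 went from 11 and 16 reads to 49 and 30 reads, which is 0.916 and 1.34 CPM against 3.03 and 3.23 CPM (log2 fold change 1.45 ± 0.298, edgeR adjusted p = 0.000833). Copg2 had 70.6 and 62.7 CPM in KO libraries, overlapping Ctrl (log2 fold change 0.11, 95% interval -0.02 to 0.24, edgeR adjusted p = 0.232).

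In resting cells the knockout raised 8 of the 10 genes and lowered none, where 2.81% of all genes were called higher and 4.63% lower. The coat sum was 2030.5 and 2019 CPM, 1.22 times that of resting Ctrl cells, and the median log2 fold change was 0.26 for the 10 genes against 0.00 for all. Copb2 had 300.1 and 289.7 CPM (log2 fold change 0.43 ± 0.0432, edgeR adjusted p = 2.56e-07), Copa 567 and 566 CPM (0.36 ± 0.0378 in log2, edgeR adjusted p = 6.34e-07) and Copb1 254 and 261 CPM (0.34 ± 0.0406 in log2, edgeR adjusted p = 5.07e-06). Leaving out Copz2, these 3 changed most, as they did after activation. Copg1, Gbf1 and Arcn1 rose by 0.29, 0.23 and 0.20 in log2, and Cope by 0.17 (edgeR adjusted p = 0.0189). Copz1, at 165 and 152 CPM, lay above both Ctrl libraries but did not pass (log2 fold change 0.15, edgeR adjusted p = 0.0614), and Copg2, at 61.8 and 59.2 CPM, overlapped them (-0.06, adjusted p = 0.629). Copz2, with 27 and 13 reads, passed narrowly at an edgeR adjusted p of 0.0499. It entered the test through other groups, as both resting Ctrl libraries, with 5 and 10 reads, lay under the filter level of 0.820 CPM. Among the 8 genes that rose, Copz2 is therefore not support beside the share of all genes. Without replicate 1 of resting Ctrl, 5 genes were called, with Cope at an edgeR adjusted p of 0.108, Arcn1 at 0.0738 and Copz2 at 0.306. Cope was also lost without replicate 2 of resting Ctrl (edgeR adjusted p = 0.0953) or of resting KO (0.0831). Copz2 was lost without any 1 of the resting Ctrl or resting KO libraries (edgeR adjusted p from 0.0877 to 0.317) and without any 1 of the resting AGN192403 or activated KO libraries (0.0518 to 0.0525). Copz1 passed under 12 of 19 alternatives, among them the one without replicate 2 of resting KO (edgeR adjusted p = 0.0165). With library totals in place of TMM scaling, 521 of all genes were called higher and 504 lower, against 370 and 609.

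Measured directly against each other, AGN192403-treated Ctrl cells held more coat mRNA than KO cells in both states. These groups differ in guide and in compound at once. Per the published methods the compound was given for 24 h, whereas the guide had been present for days. KO cells also kept part of their Tmed10 mRNA, but TMED proteins were not measured in these libraries. Whether the perturbations were of equal strength was not tested. At rest, 8 of the 10 genes were lower in KO than with AGN192403, and none was higher, where 7.78% of all genes were called lower and 8.83% higher. The difference was largest for Gbf1 (-0.83 ± 0.043 in log2, edgeR adjusted p = 1.18e-12) and Copb2 (-0.81 ± 0.0414, edgeR adjusted p = 1.18e-12), and smallest among those called for Copz1 (-0.30 ± 0.0472). Copg2 (-0.08) and Copz2 (-0.75, 95% interval -1.34 to -0.16, edgeR adjusted p = 0.078) did not pass. With median-ratio size factors, 1511 of all genes were called higher and 795 lower, against 1162 and 1024. After activation, 6 of the 10 genes were lower in KO cells, none was higher, and 7.34% of all genes were called lower and 13% higher. Gbf1 again differed most, by -0.50 ± 0.0426 in log2 (edgeR adjusted p = 5.12e-09), followed by Copb2 (-0.33), Copa (-0.28), Copb1 (-0.26), Copg1 (-0.23) and Cope (-0.22). Arcn1, Copz1, Copz2 and Copg2 differed by less than the test could call, with log2 differences of -0.06, -0.02, -0.32 and 0.00 and 95% intervals from -0.14 to 0.03, -0.11 to 0.08, -0.79 to 0.14 and -0.12 to 0.12. With library totals in place of TMM scaling, 1204 of all genes were called higher and 1500 lower, against 1706 and 967.

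Activation itself raised the coat in Ctrl vehicle cells, where the sum was 1.24 times that at rest. Of the 10 genes 7 rose and none fell, with 36.4% of all genes called higher and 37.4% lower, so the share of the 10 that rose is to be read against a background of widespread change. Of those called, Copg1 moved most, from 197 and 193 CPM at rest to 299.6 and 297 CPM, a log2 fold change of 0.61 ± 0.0423 (edgeR adjusted p = 1.53e-12). Arcn1, Copb2 and Copz1 rose by 0.36, 0.35 and 0.34 in log2, and Copa and Copb1 by 0.25 and 0.23. Gbf1 rose least of those called, from 127 and 125 CPM to 138 and 140.3 CPM (0.14 ± 0.0461 in log2, edgeR adjusted p = 0.00724), and without replicate 2 of resting Ctrl it did not pass (edgeR adjusted p = 0.057). Cope (0.06, 95% interval -0.03 to 0.16), Copg2 (-0.03, -0.16 to 0.10) and Copz2 (0.80, -0.09 to 1.69) did not pass. Marker sums of CD8 T cells and of other cell types also moved with activation. From resting to activated Ctrl vehicle libraries the CD8 T cell list went from 3476 and 3518 CPM to 2303 and 2382 CPM, the myeloid list from 16.4 and 18.8 to 3.83 and 4.03 CPM, the B cell list from 6.09 and 7.11 to 1.43 and 1.83 CPM and the stromal list from 96.8 and 97.6 to 27.9 and 30.2 CPM. Their part in the coat result was not tested.

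With AGN192403, activation raised 4 of the 10 genes and lowered 1, where 33.9% of all genes were called higher and 36.1% lower. The genes that rose were Copg1 (log2 change 0.22 ± 0.04, edgeR adjusted p = 2.33e-05), Copz1 (0.19 ± 0.0459, edgeR adjusted p = 0.000756), Copa (0.09 ± 0.0367, edgeR adjusted p = 0.0242) and Copz2 (0.55 ± 0.239, edgeR adjusted p = 0.043). Gbf1 fell, from 269.6 and 255 CPM at rest to 241 and 233 CPM (-0.15 ± 0.0412, edgeR adjusted p = 0.00306), whereas in vehicle cells it rose. Copb2, at 509 and 526 CPM at rest and 492 and 502 CPM after activation, did not pass (-0.06, 95% interval -0.14 to 0.02, edgeR adjusted p = 0.201), nor did Copb1 (0.00), Arcn1 (0.07), Cope (0.01) and Copg2 (0.07). Without 1 library some of these calls were lost: that of Gbf1 without replicate 1 of resting AGN192403 cells (edgeR adjusted p = 0.219), that of Copa without replicate 2 of activated AGN192403 cells (0.247), and that of Copz2 without replicate 2 of resting or replicate 1 of activated AGN192403 cells (0.249 and 0.202). Arcn1 passed without any 1 of 7 libraries (edgeR adjusted p from 0.0168 to 0.0357). With DESeq2, 3 genes rose and none fell.

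The difference between the activation responses, AGN192403 minus vehicle, was negative and called for 6 of the 10 genes and positive for none, where 11.1% of all genes were called lower and 8.62% higher. It was -0.41 ± 0.0592 for Copb2 (edgeR adjusted p = 1.57e-05), -0.39 ± 0.0582 for Copg1 (edgeR adjusted p = 2.77e-05), -0.29 ± 0.0619 for Gbf1 (edgeR adjusted p = 0.00147), -0.28 ± 0.0579 for Arcn1 (edgeR adjusted p = 0.000917) and -0.23 ± 0.0559 for Copb1 (edgeR adjusted p = 0.0049). For Copa it was -0.16 ± 0.0527 with an edgeR adjusted p of 0.0364, and this call was lost under 14 of 19 alternatives, among them leaving out any library but replicate 2 of activated AGN192403 cells (adjusted p from 0.0529 to 0.2). Cope (-0.05), Copz1 (-0.16), Copz2 (-0.24) and Copg2 (0.10) did not pass, although Copz1 did without replicate 2 of activated AGN192403 cells (edgeR adjusted p = 0.0397).

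**Figure D3:**
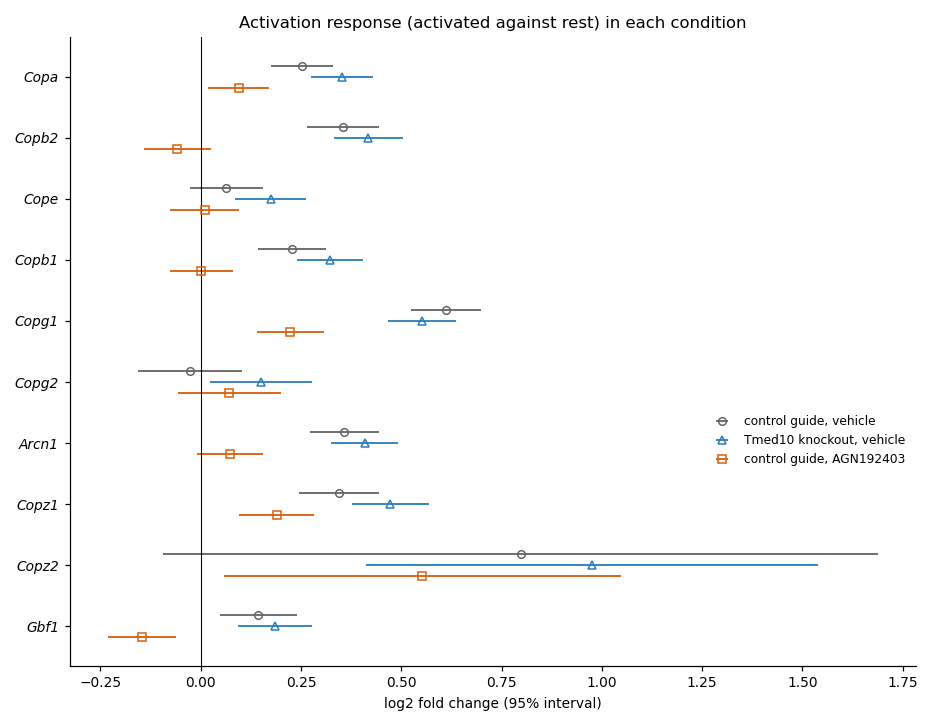
Log2 fold change of activated against resting cells (horizontal axis) for each gene in control vehicle cells (grey circles), Tmed10 KO vehicle cells (blue triangles) and control cells with AGN192403 (orange squares). Lines are 95% intervals. The orange squares of Copb2 (-0.06) and Gbf1 (-0.15) lie left of 0, and all blue triangles lie right of it.

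In KO cells, activation raised all 10 genes, where 37.2% of all genes were called higher and 36.5% lower. The log2 change was 0.55 ± 0.0412 for Copg1, 0.47 ± 0.0465 for Copz1, 0.42 ± 0.0417 for Copb2, 0.41 ± 0.0409 for Arcn1, 0.35 ± 0.0372 for Copa, 0.32 ± 0.0393 for Copb1, 0.19 ± 0.0443 for Gbf1 and 0.17 ± 0.0428 for Cope, with edgeR adjusted p from 7.11e-12 to 0.000747. Copz2 changed by 0.98 ± 0.273 (edgeR adjusted p = 0.00251) and lost its call with DESeq2 (0.99 in log2, DESeq2 adjusted p = 0.0591). Copg2 went from 61.8 and 59.2 CPM to 70.6 and 62.7 CPM, or 0.15 in log2 (95% interval 0.02 to 0.28, edgeR adjusted p = 0.0318), and lost its call under 9 of 19 alternatives, among them leaving out replicate 1 of activated KO cells (0.02 in log2, edgeR adjusted p = 0.802) or either resting KO library (0.0927 and 0.258). Cope was lost without replicate 1 of resting KO (edgeR adjusted p = 0.0714).

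That more genes passed in KO than in Ctrl cells does not show a different response. The activation response of the knockout minus that of control passed for 0 of the 10 genes with edgeR, for 0 at an unadjusted p under 0.05 and for 0 with DESeq2, where edgeR called 3.07% of the 13167 genes higher and 1.89% lower. The differences ran from -0.06 for Copg1 to 0.18 for Copg2 and Copz2. For Copa the 95% interval was -0.01 to 0.21, for Copb2 -0.06 to 0.19 and for Gbf1 -0.09 to 0.17, so a difference of the size seen with AGN192403 for Copb2 lies outside the interval.

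The proportions of the paralogues to each other changed. Copg1 rose in all 4 comparisons with Ctrl vehicle cells of the same state and Copg2 passed in none of them, while on activation Copg2 passed in KO cells and not in vehicle-treated or AGN192403-treated Ctrl cells. Per length, Copg2 made up 24.6% and 26.1% of γ-COP mRNA in resting Ctrl libraries and 16.2% and 15.8% with AGN192403. After activation it made up 17.2% and 18.7% in Ctrl and 15.1% and 14.2% with AGN192403. KO cells lay between, at 21.2% and 20.7% at rest and 17.2% and 16.02% after activation, where the nearest Ctrl and KO libraries both rounded to 17.2%. Copz2 remained the minor ζ-COP gene throughout, at 0.615% and 0.950% of ζ-COP mRNA in resting Ctrl libraries and at most 3.47%, in an activated AGN192403 library. The log2 ratio of B to F subcomplex mRNA per length was 0.06 and 0.05 in resting Ctrl libraries, 0.28 and 0.26 with AGN192403, and 0.12 and 0.16 in KO cells. After activation it was -0.09 and -0.09 in Ctrl, 0.17 and 0.16 with AGN192403, and 0.01 and 0.03 in KO cells. In both states the ratio was lowest in Ctrl and highest with AGN192403, with no overlap between groups. With 2 libraries against 2, an exact test on these shares could not pass, and none was run.

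**Figure D4:**
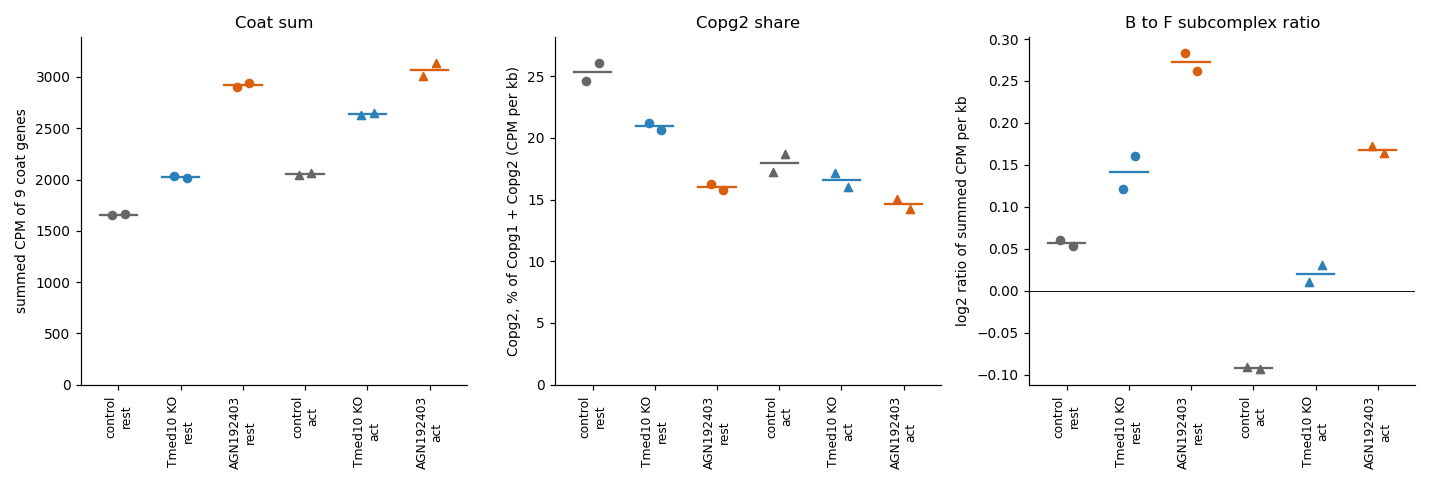
Left, summed CPM of the 9 coatomer genes; middle, Copg2 as a percentage of Copg1 plus Copg2 by CPM per kb; right, log2 ratio of B (Copa, Copb2, Cope) to F (Copb1, Copg1, Copg2, Arcn1, Copz1, Copz2) subcomplex mRNA by CPM per kb. Points are libraries and bars group means, colours as for the levels by library; the middle panel falls from 26.1% in a resting control library to 14.2% in an activated AGN192403 library.

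Ordered from low to high, the group means of Copa, Copb1 and Cope had the same order: resting Ctrl, activated Ctrl, resting KO, activated KO, resting AGN192403, activated AGN192403. Copb2 and Gbf1 differed from it in the last step, where resting AGN192403 cells were highest. That step did not pass for Copb2 (edgeR adjusted p = 0.201). For Gbf1 it passed with edgeR (adjusted p = 0.00306) but not with DESeq2 (adjusted p = 0.0644). Libraries of neighbouring groups did not overlap for Copa, Copb2, Copz2 and Gbf1, and how often this held over all genes was not counted. For Copz2 the order rests on 5 to 49 reads a library. Its difference between KO and AGN192403 cells did not pass at rest or after activation (edgeR adjusted p = 0.078 and 0.354). For Copg2 all 5 neighbouring pairs overlapped, so that no order can be read. For Copb1 and Cope both AGN192403 groups overlapped, and for Copg1, activated KO overlapped resting AGN192403. For Arcn1, activated KO overlapped both AGN192403 groups, and for Copz1 it overlapped activated AGN192403.

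As a description over the 12 libraries, which form 6 groups and so are not independent of the design, the log2 CPM of Copa and Copb1 correlated at Pearson r = 0.996, that of Copb1 and Copb2 at 0.995, and that of Copg2 with the other genes at 0.420 (Gbf1) to 0.602 (Copz1). The genes most like the mean of the 9 coatomer genes were Pck2 (r = 0.994), Sec23a (0.991), Sec31a (0.986), Sar1a (0.985) and Arfgap1 (0.984). Those most like Gbf1 were Golga2 (0.980), Ggcx (0.976), Gpr107 (0.969), Ift20 (0.968) and Golga5 (0.967). The coatomer mean was of log2 CPM without scaling its genes to equal spread. Copz2, with 5 to 49 reads a library, can therefore weigh heavily in that mean.

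Genes that work with the coat moved in part with it. The shares of all genes called higher and lower, against which these counts are to be read, were 11.6% and 13.7% with AGN192403 at rest, 16.4% and 18.3% with AGN192403 after activation, 2.81% and 4.63% in resting KO cells and 10.8% and 8.78% in activated KO cells. Of the ARF GTPases that coatomer binds, Arf4 and Arf1 rose with AGN192403 at rest (log2 fold change 1.12 ± 0.0541 and 0.75 ± 0.0445) and 0 of 5 fell, and the same 2 rose in KO cells in both states. In activated cells with AGN192403 3 of 5 rose and Arf2 fell, from 16.8 and 19.2 CPM to 12.6 and 14.4 CPM (-0.41 ± 0.12, edgeR adjusted p = 0.00945). The ARF GTPase-activating proteins, which trigger uncoating, rose in 3 of 3 with AGN192403 at rest, led by Arfgap1 (0.87 ± 0.0586), in 2 of 3 with it after activation, and in 1 of 3 in resting and 2 of 3 in activated KO cells. Arfgef1 and Arfgef2, which encode the exchange factors of the trans-Golgi, passed in 1 of 2 cases with AGN192403 at rest, Arfgef2 at 0.17 ± 0.0489, and in 0 of 2 in the other 3 comparisons.

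Cargo receptors and adaptors rose in 8 of 8 with AGN192403 at rest and 7 of 8 after activation, and in 4 of 8 in resting and 6 of 8 in activated KO cells. Among them the KDEL receptor gene Kdelr3, which returns soluble ER proteins, went from 2.10 and 1.66 CPM in resting Ctrl libraries to 10.3 and 10.0 CPM with AGN192403 (log2 fold change 2.44 ± 0.196) and had 4.999 and 6.00 CPM in resting KO libraries. Of the p24 genes 6 of 9 rose and 0 fell with AGN192403 at rest. After activation 4 rose with it and Tmed1 fell, from 6.58 and 4.61 CPM to 3.21 and 3.23 CPM (-0.80 ± 0.204, edgeR adjusted p = 0.00332). In KO cells Tmed10 fell in both states, with 2 of 9 higher at rest and 5 of 9 after activation. The tether and SNARE genes that receive COPI vesicles at the ER rose in 5 of 8 with AGN192403 at rest, with Sec22b at 1.13 ± 0.0572, and in 6 of 8 after activation. In KO cells 3 of 8 rose at rest and 4 of 8 after activation.

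Other coats served as a comparison. The COPII coat, which buds vesicles from the ER in the opposite direction, rose in 8 of 10 genes with AGN192403 at rest and 7 of 10 after activation, and in 5 of 10 in KO cells of either state. Its median log2 fold change was 0.55 with AGN192403 at rest and 0.20 in activated KO cells, beside 0.88 and 0.28 for COPI and Gbf1. Sec23a was its leading gene at rest (1.55 ± 0.0559), from 39.2 and 39.7 CPM to 115.4 and 115.9 CPM. Clathrin and AP-1 genes, the coat of the trans-Golgi, rose in 2 of 9 and fell in 1 with AGN192403 at rest, and 1 rose and 1 fell after activation. In KO cells 0 passed at rest, and after activation 0 rose and 2 fell. Their medians were 0.06 with AGN192403 at rest and 0.04 in activated KO cells. With AGN192403 at rest their count lay nearer to the share of all genes called higher than those of COPI and COPII. The difference of activation responses, AGN192403 minus vehicle, was negative and called for 6 of 10 COPII genes, 6 of the 10 COPI genes and Gbf1 and 2 of 9 clathrin and AP-1 genes, where 11.1% of all genes were called lower. A negative difference need not be a smaller response: Cltb, a clathrin light chain gene, went from 19.1 and 19.0 to 22.4 and 23.9 CPM on activation in vehicle cells and from 18.4 and 21.4 to 11.8 and 13.3 CPM with AGN192403.

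**Figure D5:**
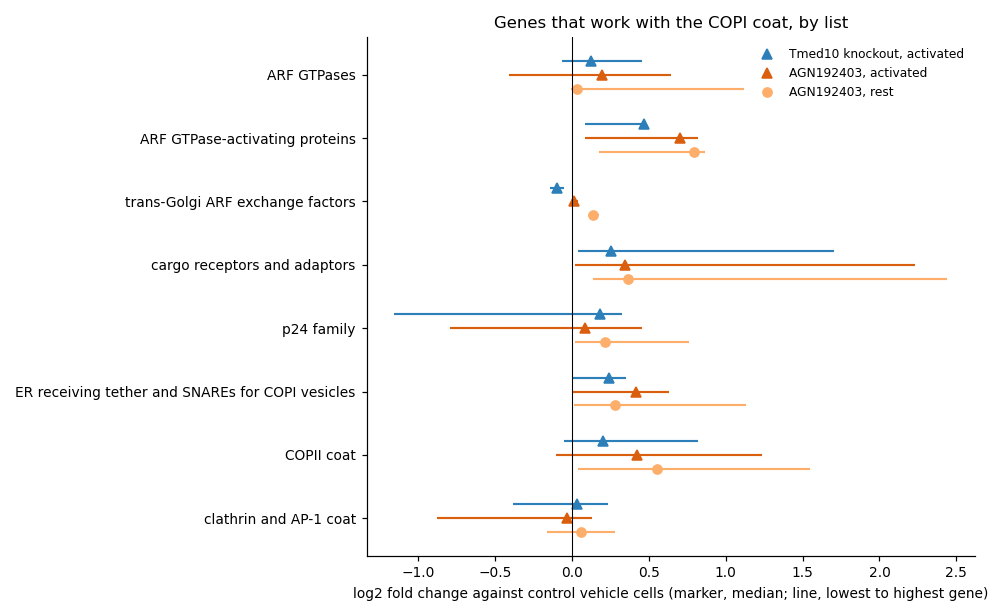
Log2 fold change against control vehicle cells (horizontal axis) of the lists of genes that work with COPI and of the other coats. Markers are list medians and lines run from the lowest to the highest gene, for the Tmed10 KO in activated cells (blue), AGN192403 in activated cells (dark orange) and AGN192403 at rest (light orange). The clathrin and AP-1 medians lie at 0.04, -0.03 and 0.06, and the COPII medians at 0.20, 0.42 and 0.55.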

How the data were processed

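The file deposited by the authors gives integer read counts for every gene and library. Per the labels, alignment used STAR 2.6.0c with GRCm38 (mm10), followed by HTSeq; the published methods differ on the STAR release and tested with DESeq2. How reads of paralogues were shared out is not given in the sources used here. Identifiers without a symbol (598) held 0.0709% of counts. In edgeR 4.0.16 (R 4.3.3), filterByExpr kept 13167 genes. TMM factors were 0.976 to 1.02, and a quasi-likelihood model with a mean for each of the 6 groups used all 12 libraries, leaving 6 residual degrees of freedom. Over 11 comparisons, of which activation with AGN192403 and in knockout cells were added after seeing the data, calls were made at a Benjamini-Hochberg adjusted p under 0.05 across all genes. CPM are TMM-scaled, and SE comes from the F statistic. Of each list at most 3 called genes with the largest change were named per comparison. The genes, lists and tests were chosen with earlier results of these data known. Scripts were tested on simulated data. Alternatives were no filter, a filter of 5 CPM in 2 libraries, median-ratio size factors, library totals, a replicate block, leaving out each library, fitting the libraries of a comparison alone, and DESeq2 1.42.0. Depth limits genes with few reads, such as Copz2.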

Additional observations from a re-analysis of the deposited data

Results flagged for a closer look

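For 6 of the 10 genes the activation response in control-guide cells differed between AGN192403 and vehicle by the test of that difference (edgeR adjusted p under 0.05). Among all 13167 genes, 11.1% were called lower and 8.62% higher for this difference, and 6 of 10 COPII genes were called lower. The log2 difference was -0.41 for Copb2, -0.39 for Copg1, -0.29 for Gbf1, -0.28 for Arcn1, -0.23 for Copb1 and -0.16 for Copa. The call for Copa was lost under 14 of 19 alternatives, and those for the other 5 were kept under all of them. The test for a library far from the others needs at least 4 in a group and was not run on groups of 2. Replicate counts of activated AGN192403 cells, one of the 4 groups behind these differences, differed by more than those of the other groups (chi-square per degree of freedom 4.11 against 1.14 to 2.28). The call for Copa was kept without replicate 2 of that group. It was lost with any other library left out, including the knockout libraries, which are not part of this difference.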

How the results depend on the processing

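Each of the 11 counts of genes called was recomputed under 19 alternatives. In 2 cases it moved by over 1.5 times. Without replicate 1 of resting control cells, 5 rather than 8 genes were called in the resting knockout (range with each library left out, 5 to 9). DESeq2 called 3 rather than 5 genes on activation with AGN192403 (4 to 6 under the other alternatives). The other counts stayed within 8 to 9 (both AGN192403 comparisons and the activated knockout), 6 to 7 (activation), 5 to 7 (difference of activation responses with AGN192403), 0 (that of the knockout), 6 and 8 (knockout against AGN192403, activated and resting), and 8 to 10 (activation of knockout cells). Of the values of single genes, 1973 kept their direction and side of the threshold, 45 calls were lost, 21 gained and 34 values changed sign. In the resting knockout Copz2 lost its call under 9 alternatives and Copz1 gained one under 12. DESeq2 gave no adjusted p for Copz2 in 6 comparisons. The values that changed sign were not called in either fit, and the cause was not tested. With median-ratio size factors, Copg2 was at -0.000334 for AGN192403 at rest and -0.00623 for the activated knockout against AGN192403. In the latter comparison it was at -0.00965 with the 5 CPM filter, -0.0474 with library totals, -0.0319 with the libraries of the comparison alone and -0.0115 with DESeq2. Copg2 on activation was at 0.0135 with no filter and 0.00107 with the libraries of the comparison alone, and Copz1 in the activated knockout against AGN192403 at 0.0175 with no filter. On activation with AGN192403, Copb1 was at -0.00293 with the 5 CPM filter and -0.00948 with library totals, and Cope at -0.00146 with library totals. With each library left out in turn, the genes with a change of sign ranged from -0.0247 to 0.0624 (Copg2, AGN192403 at rest), -0.0762 to 0.0374 (Copg2, activation), -0.0234 to 0.0479 (Copb1) and -0.0157 to 0.0598 (Cope, both activation with AGN192403), -0.129 to 0.0410 (Copg2) and -0.0696 to 0.0259 (Copz1, both activated knockout against AGN192403). For the difference of activation responses the ranges were -0.607 to 0.0726 with AGN192403 (Copz2), and for the knockout -0.180 to 0.440 (Copz2), -0.0168 to 0.0831 (Copb2), -0.00864 to 0.079 (Arcn1) and -0.00904 to 0.055 (Gbf1).

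Over all genes, the number called moved by over 1.5 times in 8 comparisons. The lowest and highest counts over the alternatives were 1355 and 2993 for the activated knockout (2583 as reported), 317 and 1477 for the resting knockout (979), 2884 and 4848 for AGN192403 in activated cells (4570), 1834 and 3701 at rest (3341), 307 and 898 for the difference of activation responses of the knockout (653), 1395 and 2918 for that with AGN192403 (2592), and 1457 and 3124 (2673) and 1215 and 3036 (2186) for the knockout against AGN192403 in activated and resting cells.

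Replicate numbers were not taken as pairs, since the labels do not say what a number marks and not every correlation of same-numbered libraries was above 0.1. The 3 of 15 that were (0.189, 0.213 and 0.239) lay among resting vehicle, activated vehicle and activated AGN192403 control cells, and the others ran from -0.00507 to 0.0288. With a replicate block, 9 rather than 8 genes were called in the resting knockout, and the counts of the other comparisons were 9, 9, 9, 7, 0, 6, 6 and 8, as without it, and 5 and 10 on activation with AGN192403 and of the knockout. The block was a single shift common to all 6 groups, so it could not model a replicate effect confined to some of them.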
